A study of Mus musculus with 14 samples.

Results

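The dystrophin and sarcoglycan complex links the actin cytoskeleton of a muscle fibre to the basement membrane outside it. Dystrophin or its homologue utrophin binds actin and dystroglycan, and dystroglycan binds laminin outside the cell. The sarcoglycans form a group of transmembrane subunits at the side of dystroglycan, and dystrobrevin and the syntrophins join dystrophin on the inner face of the membrane. Loss of dystrophin causes Duchenne muscular dystrophy, and loss of alpha-, beta- or delta-sarcoglycan causes limb-girdle muscular dystrophies. Utrophin and Sgce (epsilon-sarcoglycan) are found in many tissues, whereas dystrophin and Sgca (alpha-sarcoglycan) are typical of muscle.

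The genes described are Dmd (dystrophin), Utrn (utrophin), Dag1 (dystroglycan), the sarcoglycan genes Sgca, Sgcb, Sgcd and Sgce, and Dtna (alpha-dystrobrevin). They were chosen by name, and each matched 1 transcript of the 24016 in the deposited expression table. All 8 were expressed, which means here that their values averaged 1 or more across libraries, as 14312 transcripts did. In mm9 the counted transcripts lie at chr10:12101986-12581533 (Utrn, minus strand), chr9:108107192-108166146 (Dag1, minus), chr11:94824091-94837641 (Sgca, minus), chr5:74023988-74038970 (Sgcb, minus) and chr6:4624350-4697204 (Sgce, minus), with Dtna on chromosome 18, plus strand. All 8 are protein-coding genes in GENCODE, and each value is over the exons of a single transcript.

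RNA came from the mouse line C2C12, whose myoblasts leave the cell cycle and fuse to myotubes once serum is withdrawn. Cells received a non-targeting siRNA (siCtrl) or an siRNA pool against Klf5 (siKlf5), a zinc-finger transcription factor, and poly(A) RNA was taken in growth medium (day 0) and after 1, 2 and 3 days in medium with 2% horse serum. Of the 14 samples of the study, 8 are RNA libraries, with 1 for each siRNA and day, and the 6 ChIP samples were not analysed here. All groups share a single cell line and the transfection, and no condition has a replicate.

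Recovered depth was 12178833, 7850497, 20301506 and 12366627 reads on days 0, 1, 2 and 3 in siCtrl cells, and 11136799, 8119452, 11808641 and 10864084 in siKlf5 cells. Levels are given as the deposited FPKM values, which are per length of exon, and genes are set side by side on that scale. Each value covers 1 transcript with at most 3 reads kept per position. How far this shifts levels between genes was not tested. These values were scaled to a total of 10000000 so they exceed ordinary FPKM. Klf5 itself was at 224, 381, 614 and 933 in siCtrl cells on days 0 to 3. In siKlf5 cells it was at 35.1, 159.6, 192 and 211, below the control on each of the 4 days, with a fitted log2 difference of −1.94 ± 0.20 (SE, limma, adjusted p = 0.0244). This call was lost with no filter, without a mean-variance trend and without day 2, where 0 transcripts passed. The myoblast label was met by the markers, since Myod1, the myogenic determination factor, lay between 398 and 557 in the 8 libraries. Of 10 markers of endothelium, leukocytes, adipocytes, Schwann cells and smooth muscle, 4 to 6 were above 0 in each library.

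Dag1 had the highest level of the 8 genes, with a mean value of 756 over the 8 libraries. It was followed by Sgcb at 399.8, Sgce at 221, Sgca at 176, Dtna at 126, Utrn at 116, Sgcd at 19.0 and Dmd at 1.23. Dag1 was above Sgcb, Sgcb above Sgce, Utrn above Sgcd and Sgcd above Dmd in 8 of 8 libraries. The middle of the order was less firm: Sgce exceeded Sgca in 6 of 8 libraries, Sgca exceeded Dtna in 6 and Dtna exceeded Utrn in 5, so these neighbours overlapped. Among expressed transcripts, Dag1 stood at percentile 96.2, Sgcb at 90.4, Sgcd at 25.6 and Dmd at 2.08. Dmd was thus the lowest of the 8 in these cells, while Dag1 was among the most abundant transcripts.

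**Figure D1:**
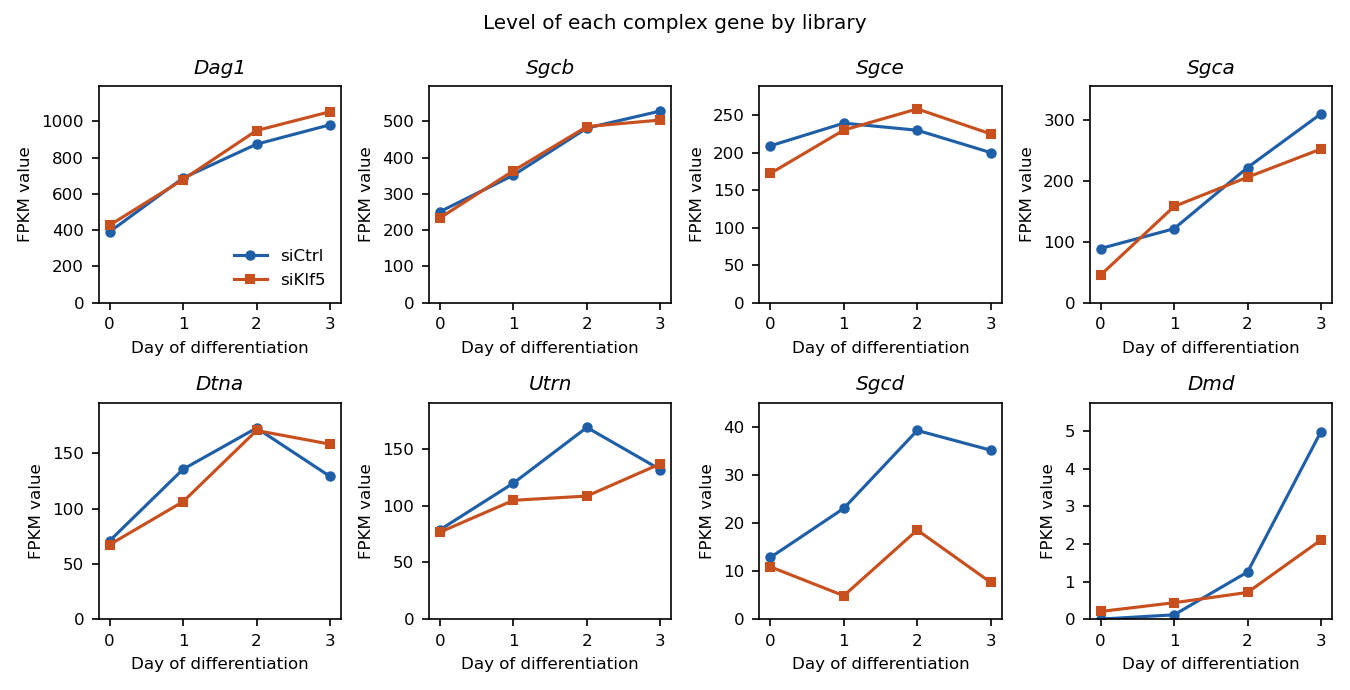
FPKM value (y axis, linear, own scale for each gene) against day of differentiation (x axis) for the 8 genes, in order of mean level, with 1 point per library. Circles are siCtrl and squares siKlf5. Dag1 and Sgcb ran nearly together in both siRNAs, while Sgcd in siKlf5 cells stayed between 4.86 and 18.5 and in siCtrl cells reached 39.2.

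To ask how the complex changed as myoblasts became myotubes, day 3 was set against day 0. Dag1, Sgca, Sgcb, Dtna and Utrn rose in the fit over both siRNAs. The estimated fold was 4.40 for Sgca, 2.49 for Dag1, 2.13 for Sgcb, 2.07 for Dtna and 1.73 for Utrn. Sgce, Sgcd and Dmd did not pass the test, and no member fell. With no filter on low values, which tests 24016 transcripts, 2 members passed (Dag1 and Sgcb), and the limma adjusted p was 0.0568 for Sgca, 0.0539 for Dtna and 0.122 for Utrn. The 5 of 8 members (62.5%) stand beside 12.8% of all expressed transcripts higher and 17.6% lower in the same fit. Of all calls in that fit, 42.1% were upward with the deposited scaling, 53.4% with upper-quartile scaling and 54.4% with median-ratio scaling.

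The fit was limma on log2(value + 0.1) with siRNA and day as factors, 3 residual degrees of freedom and Benjamini-Hochberg adjustment over 14312 transcripts. Its spread is how far the day difference varied between siCtrl and siKlf5 cells, so the p-values do not measure variation between cultures. Counting within each siRNA with no test, 5 members were at least 2-fold higher on day 3 in siCtrl cells (15.5% of expressed transcripts were) and 5 in siKlf5 cells (14.9%). The members' median log2 difference was 1.20 in siCtrl and 1.17 in siKlf5 cells, against −0.07 and −0.08 over all expressed transcripts. In RNA from whole cultures, fewer differentiated cells and less RNA per cell cannot be told apart.

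Dystroglycan, the laminin receptor made from Dag1, was at 391, 688, 875 and 981 on days 0 to 3 in siCtrl cells. In siKlf5 cells it was at 428, 679, 950.0 and 1054. Every later day lay above the day before in both series, and the ranges of days 0 and 3 did not overlap. The fit gave a log2 difference of 1.31 ± 0.10 (SE, limma, adjusted p = 7.16e-05).

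Sgcb, beta-sarcoglycan, forms the core of the sarcoglycan group with Sgcd. It was at 251, 351, 481 and 528 in siCtrl cells and at 234, 364, 485 and 504 in siKlf5 cells. The control and knockdown values lay close together on each day, and both series climbed day by day (log2 difference 1.09 ± 0.10, limma adjusted p = 0.00019).

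Sgca, alpha-sarcoglycan, is the subunit of skeletal muscle whose place Sgce takes in other tissues. In siCtrl cells it was at 89.0, 122, 222 and 311 on days 0 to 3. In siKlf5 cells it was at 45.4, 158, 206 and 253. The 3.49-fold day 3 level in siCtrl cells and the 5.57-fold level in siKlf5 cells start from different day 0 values, and the fitted log2 difference was 2.14 ± 0.27 (SE, limma, adjusted p = 0.00090). Hils1, which lies on the opposite strand within the span of Sgca and was counted over both strands, was above 0 only on day 3 in siCtrl cells, at 3.69. Spans alone were compared, so whether the pair shares counted exon bases was not tested.

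Sgce, epsilon-sarcoglycan, had the narrowest range of the 8 genes, 1.5-fold between its lowest and highest library. It was at 209, 239.6, 230.1 and 200.3 in siCtrl cells and at 172, 230.3, 259 and 225 in siKlf5 cells, with day 3 the lowest value in siCtrl cells and above day 0 in siKlf5 cells (log2 difference 0.16 ± 0.14, limma adjusted p = 0.427). The ratio of Sgca to Sgce therefore moved from 0.425 on day 0 to 1.55 on day 3 in siCtrl cells and from 0.263 to 1.12 in siKlf5 cells. It was below 1 in all libraries of days 0, 1 and 2 and above 1 in both libraries of day 3.

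**Figure D2:**
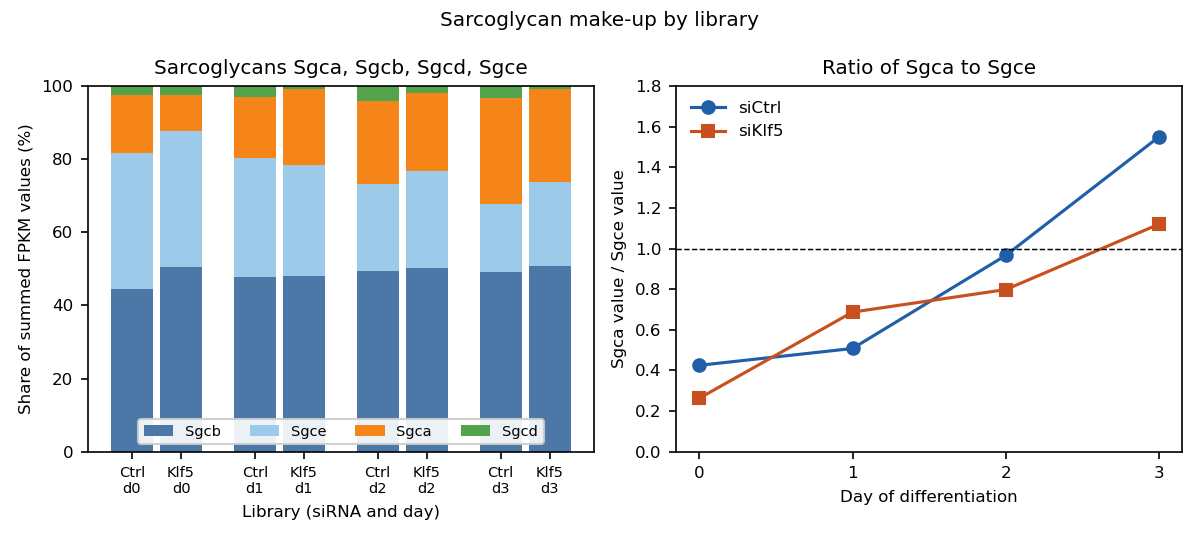
Left, share of the summed FPKM values of Sgca, Sgcb, Sgcd and Sgce (y axis, percent) in each of the 8 libraries (x axis, siRNA and day). Right, Sgca value over Sgce value (y axis) by day (x axis) in siCtrl (circles) and siKlf5 (squares), with a dashed line at 1, which both series pass by day 3.

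As shares of the 4 sarcoglycan values summed, Sgcb took 44.6% to 50.9% in every library. Sgce went from 37.2% on day 0 to 18.6% on day 3 in siCtrl cells and from 37.3% to 22.8% in siKlf5 cells. Sgca took 15.8% and 9.82% on day 0, in siCtrl and siKlf5 cells, and 28.9% and 25.6% on day 3. Sgcd took 2.28% of the sum in siCtrl and 2.35% in siKlf5 cells on day 0, but 3.27% against 0.771% by day 3. The share of Sgce was lower on day 3 beside higher values of Sgca and Sgcb, while the level of Sgce itself did not pass the test. The share of Sgcd was alike on day 0 and apart on day 3.

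Dystrobrevin binds dystrophin and the syntrophins. Dtna was at 70.9, 136, 173 and 129 in siCtrl cells and at 67.4, 106, 171 and 158 in siKlf5 cells. Its highest value was on day 2 in both series (day 3 against day 0, log2 difference 1.05 ± 0.17, limma adjusted p = 0.0030).

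Utrophin can stand in for dystrophin at the membrane. Utrn was at 78.8, 119.9, 169 and 132 in siCtrl cells and at 76.7, 105, 108 and 137 in siKlf5 cells. The siCtrl series peaked on day 2 and the siKlf5 series on day 3 (day 3 against day 0, log2 difference 0.79 ± 0.19, limma adjusted p = 0.0154). This call was also lost in limma without a mean-variance trend (adjusted p = 0.0739).

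Dmd was the scarcest member. In siCtrl cells its value was 0, 0.113, 1.25 and 4.99 on days 0 to 3, from 0, 2, 58 and 141 reads over 13771 bp of exon. In siKlf5 cells it was 0.203, 0.436, 0.710 and 2.11, from 5, 8, 19 and 52 reads. Both series were highest on day 3. With the floor of 18 reads in place of the 0 reads of day 0, day 3 was 7.71-fold higher in siCtrl cells. The 95% counting interval against the 0 reads began at 2.535 on the log2 scale and had no upper limit. In siKlf5 cells the 5 reads of day 0 lie under the same floor. Day 3 was 10.4-fold higher than day 0 there, with a 95% counting interval of 0.37 to 9.78 on the log2 scale, and 2.96-fold higher than the floor. The fit over both siRNAs gave an adjusted p of 0.0926 (limma) and no call, and it rests on these near-0 values. The value of Utrn was 26.4 times that of Dmd on day 3 in siCtrl cells and 65.0 times in siKlf5 cells.

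Sgcd, delta-sarcoglycan, was above its day 0 value on each later day in siCtrl cells, but on day 2 alone in siKlf5 cells. In siCtrl cells it was at 12.8, 23.0, 39.2 and 35.1 on days 0 to 3, and in siKlf5 cells at 10.9, 4.86, 18.5 and 7.63. Day 3 was 2.74-fold above day 0 in siCtrl cells and at 0.703 of day 0 in siKlf5 cells, and the fit of day 3 against day 0 gave no call (log2 difference 0.47 ± 0.57, limma adjusted p = 0.574). With 1 library per siRNA and day, the difference between the courses was not tested.

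The effect of Klf5 knockdown was then read on each day and over the 4 days. Sgcd was the member with the largest fitted difference, lower in siKlf5 cells on 4 of 4 days. Dmd was lower on days 2 and 3, Utrn on day 2 and Sgca on day 0, each by over 1.5-fold, though Dmd on day 2 was within counting error and within 1.5-fold with pseudocount 1, and Dag1, Sgcb, Sgce and Dtna stayed within 1.5-fold of the control on every day. No member passed the fit over the 4 days.

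In that fit (limma, day as a factor, 3 residual degrees of freedom), 9 of 14312 transcripts passed, 0.0629%, none of them among the 8 members, with 1374 transcripts at an unadjusted p under 0.05. These were Klf5, Msln, Myl4, Il33, Suox, Adamts14, Ntn4 and Mir7052, which were lower in siKlf5 cells, and Myh4, which was higher. These calls depend on the settings: 0 transcripts passed with no filter, without a mean-variance trend or without day 2, and 1 passed without day 3. Of the members, 1 was under that unadjusted threshold. This was Sgcd, with a log2 difference of −1.43 ± 0.40 (SE, unadjusted p = 0.00751, adjusted p = 0.327 over all transcripts). The exact two-sided sign-flip permutation over the 4 days gave Sgcd p = 0.125, which is the smallest that 4 days can give. The spread in this fit is how far the siRNA difference varied between days, and days are not replicates of a state.

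**Figure D3:**
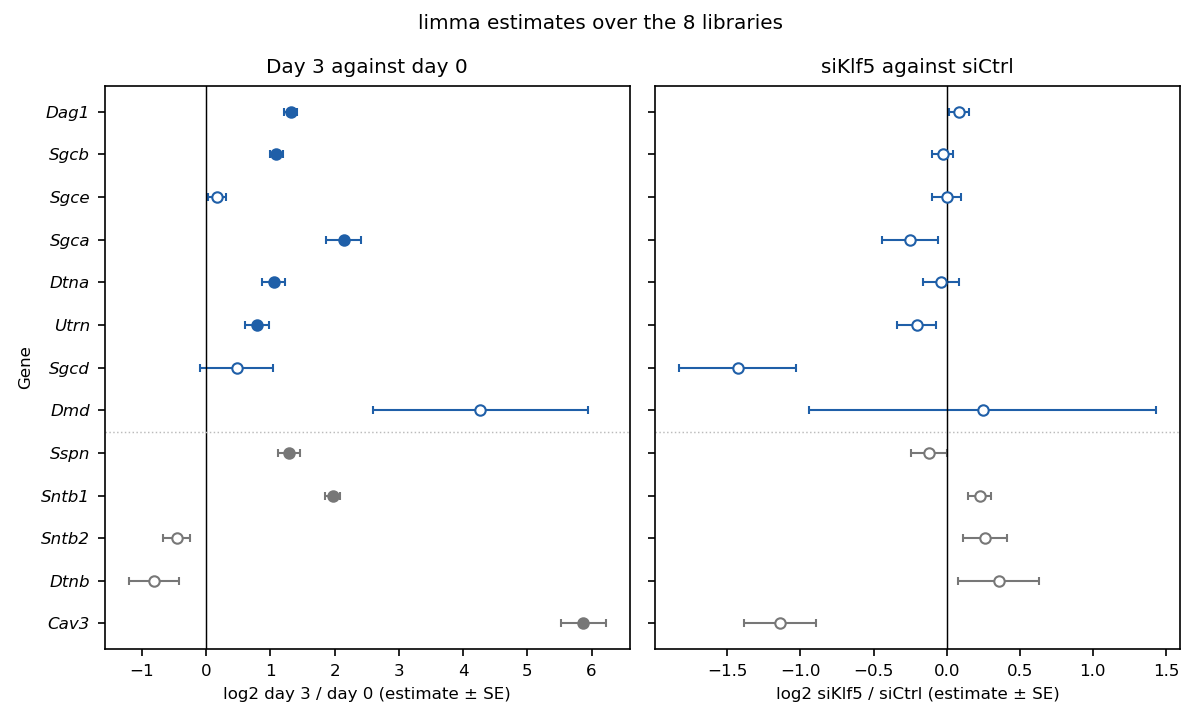
limma estimates on the log2 scale with SE bars (x axes) for the 8 genes (blue) and 5 expressed partners (grey), day 3 against day 0 on the left and siKlf5 against siCtrl on the right, with filled symbols at an adjusted p under 0.05. On the left 5 of 8 members and 3 of 5 partners are filled, and on the right none is.

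Counts of members past 1.5-fold have no test and stand beside the share of all expressed transcripts past the same cutoff. On day 0, 1 member was lower (Sgca; background 11.1%) and 1 higher (Dmd; background 9.22%). On day 1, 1 was lower (Sgcd; background 11.0%) and 1 higher (Dmd; background 16.4%). On day 2, 3 of 8 were lower (Dmd, Sgcd and Utrn; background 13.0%) and 0 higher (background 7.69%). On day 3, 2 were lower (Dmd and Sgcd; background 12.5%) and 0 higher (background 10.7%). The Dmd counts of days 0 and 1 rest on 0 to 8 reads a library, so no size is given for them. The Sgcd count of day 1 rests on 9 reads in siKlf5 cells. The counting intervals of Sgcd on day 1 and of Dmd and Sgcd on day 2 include 0. The members' median log2 difference was −0.09, −0.04, −0.06 and −0.01 on days 0 to 3, near 0 on each day.

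From day 0 to day 3 the siKlf5 level of Sgcd was 84.9%, 21.1%, 47.2% and 21.7% of the control, the day 1 value resting on 9 reads, under the floor of 18. The reads behind these values were 35, 41, 183 and 100 in siCtrl and 27, 9, 50 and 19 in siKlf5 cells. The log2 difference was −2.19 on day 3, with a 95% counting interval of −4.54 to −0.45, and −2.22 on day 1, with an interval of −6.27 to 0.39. On day 2 it was −1.08, with an interval of −2.40 to 0.05, so day 3 alone was beyond counting error. Leaving out each day in turn moved the fitted value between −1.83 and −1.17, with an adjusted p of 0.2005 to 0.667 (limma). Sgcb, its partner in the core, was 15.1 times as high as Sgcd on day 3 in siCtrl cells and 66.0 times in siKlf5 cells.

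The table holds 1 Sgcd transcript with 1390 bp of exon, from chr11:46792285-47192804 (mm9, minus strand). The GENCODE gene of the same build spans chr11:46709755-47802471 with 5 start sites, so reads on exons outside the counted transcript are not in these values. Dmd has 14 annotated start sites, and its full-length transcript (chrX:80194209-82450389, plus strand) shares exons with shorter forms that the values cannot tell apart.

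Dmd on day 3 was at 4.99 in siCtrl and 2.11 in siKlf5 cells, a log2 difference of −1.21 with a 95% counting interval of −2.57 to −0.08. On day 2 the log2 difference was −0.74, from 58 and 19 reads, with an interval of −3.26 to 1.11 that includes 0, and with pseudocount 1 it was −0.40, within 1.5-fold. The fitted value over the 4 days was 0.25 ± 1.19 (SE, limma, adjusted p = 0.970) and had the opposite sign to days 2 and 3, since it gives equal weight to the near-0 values of days 0 and 1. It was −0.21 without day 0, −0.12 without day 1 and 0.57 without day 2, and without day 3 Dmd fell under the filter.

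Utrn on day 2 was at 169 in siCtrl and 108 in siKlf5 cells, a log2 difference of −0.64 with a 95% counting interval of −0.81 to −0.49. The siCtrl library of that day was also the deepest, 1.72 times the siKlf5 library. Of the members and the genes of the lists below, Dmd, Hspg2, Plec and Dst have more exon than Utrn (12306 bp). All were lower in siKlf5 cells on day 2, with log2 differences of −0.74, −0.69, −0.13 and −0.49. Shorter transcripts went both ways, as in Acta1 (1472 bp, 0.49) and Myog (1475 bp, −0.24). Whether depth or length plays a part was not tested. On the other days Utrn lay within 1.5-fold of the control, and on day 3 the siKlf5 value was the higher one. The fitted difference over the 4 days was −0.20 ± 0.13 (SE, limma, adjusted p = 0.651), and leaving out each day gave −0.29 to −0.06, the smallest difference being without day 2.

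Sgca on day 0 was at 89.0 in siCtrl and 45.4 in siKlf5 cells, from 302 and 140 reads, a log2 difference of −0.97 with a 95% counting interval of −1.75 to −0.24. On day 1 the siKlf5 value was the higher one, and on day 3 the log2 difference was −0.30 with an interval of −0.64 to 0.03. Over the 4 days the fit gave −0.25 ± 0.19 (SE, limma, adjusted p = 0.702), with −0.01 without day 0 and −0.46 without day 1 (adjusted p = 0.504). The siKlf5 library of day 0 also had the largest sum of markers of other cell types, 29.4 against 10.2 in siCtrl, led by Cd68, a macrophage marker, at 23.5. The Cd68 difference, from 13 reads in siCtrl and 34 in siKlf5 cells, had a 95% counting interval of −0.95 to 4.71, which includes 0. The part of other cell types in the Sgca value was not tested.

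For the other members the fitted differences of siKlf5 from siCtrl were small. Dag1 gave 0.08 ± 0.07, Sgcb −0.03 ± 0.07, Dtna −0.04 ± 0.12 and Sgce 0.00 ± 0.10 (log2 ± SE, limma, adjusted p from 0.729 to 0.999). The direction for Sgce flipped with median-ratio scaling. Dag1 rested on 4160 to 15986 reads a library and Sgcb on 1554 to 6013. The Dag1 difference on day 2, 0.12 with a 95% counting interval of 0.02 to 0.20, was beyond counting error though small.

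**Figure D4:**
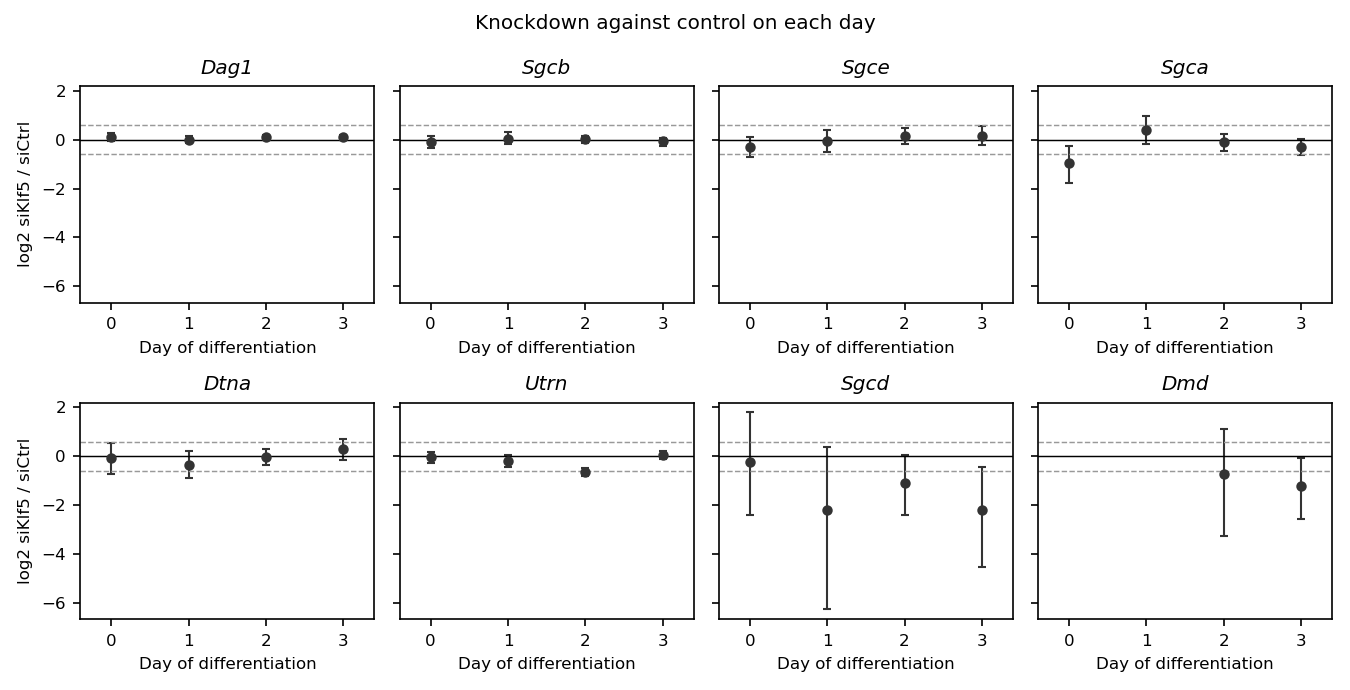
log2 ratio of the siKlf5 to the siCtrl value (y axis) on each day (x axis) for the 8 genes, with 95% exact binomial intervals that cover counting error only. Dashed lines mark 1.5-fold either way, and Dmd on days 0 and 1 is left out because both libraries had 18 reads or fewer. The Sgcd points lie below 0 on 4 of 4 days.

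Partners of the complex were read from a list of 9 genes, of which 5 were expressed. In the fit of day 3 against day 0, 3 of 5 rose, which were Cav3, Sntb1 and Sspn, and 0 fell, beside 12.8% higher and 17.6% lower of all expressed transcripts. Cav3, the caveolin of muscle membranes, had 8 and 6 reads on day 0, in siCtrl and siKlf5 cells, under the floor of 18 reads. Its day 3 value was 40.8-fold above that floor in siCtrl cells and 14.0-fold in siKlf5 cells, and its fitted size rests on these low values. Sntb1, a syntrophin, had a log2 difference of 1.97 and Sspn, sarcospan, of 1.29. Sgcz, Sntg1, Sntg2 and Nos1 were not expressed by the mean of 1.

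In siKlf5 cells on day 3, 1 of 5 partners was lower by over 1.5-fold (background 12.5%) and 2 higher (background 10.7%). Cav3 was at 119 against 316 in siCtrl cells. Dtnb, the second dystrobrevin, was at 20.3 against 11.7, and Sntb2, a syntrophin that links membrane proteins to dystrophin, at 84.6 against 52.4. None passed the fit over the 4 days (Cav3 −1.14 on the log2 scale, limma adjusted p = 0.236). Sntb1 was at 286 against 258, within 1.5-fold. The Dtnb difference, from 56 and 85 reads, had a 95% counting interval of −0.51 to 2.15 on the log2 scale, which includes 0. The Cav3 and Sntb2 intervals, −1.97 to −0.90 and 0.26 to 1.12, did not. Cav3 was again the 1 partner of 5 lower by over 1.5-fold on days 1 and 2 (background 11.0% and 13.0%). It was at 17.6 against 56.8 and at 95.9 against 217 in siCtrl cells. None was higher on days 0 to 2 (background 9.22%, 16.4% and 7.69%) or lower on day 0 (background 11.1%).

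Dystroglycan binds laminin only after sugars are added to it, and 17 of 17 listed genes of that pathway were expressed. In the fit of day 3 against day 0, 3 of 17 rose (B3gnt1, Dpm1 and Large) and 0 fell, beside a background of 12.8% higher, which is near, and 17.6% lower. On day 3, siKlf5 cells had 1 higher by over 1.5-fold (background 10.7%) and 0 lower (background 12.5%). The higher one was Pomgnt2, which adds the second sugar of the chain, at 17.2 against 10.7, from 73 and 52 reads and with a counting interval that includes 0. Ispd, which makes the ribitol donor, was at 13.9 against 9.74, while Dpm1, of the mannose donor pathway, was at 96.4 against 131 and B3gnt1 at 201 against 266. On day 3 the siKlf5 values of this list thus went both ways. On day 0, 3 of 17 were lower by over 1.5-fold (Pomgnt1, Pomgnt2 and B3gnt1, background 11.1%). The Pomgnt2 difference, from 90 reads in siCtrl and 45 in siKlf5 cells, had a counting interval that includes 0. Pomgnt2 was higher and Dpm3 lower on day 1 (background 16.4% and 11.0%). These rest on 23 and 47 reads for Pomgnt2 and 72 and 34 for Dpm3, in siCtrl and siKlf5 cells, and both intervals include 0. Dpm2 was higher on day 2 by 0.82 on the log2 scale, with a 95% counting interval of 0.28 to 1.33 (background 7.69%). None of the 17 passed the fit over the 4 days.

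Of 7 extracellular ligands and matrix partners, Bgn (biglycan) and Lama2 (the laminin chain of muscle) rose in the fit of day 3 against day 0, and Lamc1 fell (background 12.8% higher and 17.6% lower). Bgn was at 418 on day 0 and 1460.2 on day 3 in siCtrl cells, and at 409 and 1719.9 in siKlf5 cells. Bgn, Agrn and Lamb2 differed between the siRNAs on day 3 by log2 values of 0.24, −0.20 and 0.12, and 0 of 7 passed 1.5-fold on that day (background 12.5% lower and 10.7% higher), with Lamc1, Lamb1 and Lama2 higher in siKlf5 cells by 0.36, 0.35 and 0.32. Past 1.5-fold on other days were Bgn on day 1, higher by 0.67 on the log2 scale (background 16.4%), and Hspg2, perlecan, on day 2, lower with −0.69 (background 13.0%). Of 12 costamere genes, which anchor the sarcomere to the membrane at the sites where the complex lies, 6 rose and 0 fell (background 12.8% and 17.6%), among them Ank3, Itga7, Vcl and Des. In siKlf5 cells on day 3, 1 of 12 was higher by over 1.5-fold (background 10.7%) and 0 lower (background 12.5%). This was Synm, a filament protein, from 20 and 33 reads and with a counting interval that includes 0. The log2 differences of Itga7, Ank3, Vcl and Des on that day were 0.22, 0.14, −0.11 and 0.03, and those of Tln2 and Dst were 0.45 and 0.34. Over days 0 to 2 the list had 1 gene lower by over 1.5-fold, Ank2 on day 1, with −1.64 and a 95% counting interval of −2.86 to −0.55 (background 11.0%). Synm was counted as higher on days 0 and 1 from 0 reads in siCtrl and 11 and 8 in siKlf5 cells, with no size given.

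Of 8 differentiation markers, 6 rose from day 0 to day 3 and 0 fell (background 12.8% and 17.6%). Myh3, the embryonic myosin, went from 103 to 2790.4 in siCtrl and from 96.4 to 2684.9 in siKlf5 cells, and Ckm, muscle creatine kinase, from 21.0 to 1093.7 and from 19.9 to 1096.3. Acta1, skeletal actin, was at 4150.1 and 4351.1 on day 3, in siCtrl and siKlf5 cells. These values rest on 12523 and 11472 reads over 1472 bp of exon, with at most 3 reads kept per position. How far this cap holds down such high values was not tested. Myog, the differentiation factor myogenin, was the 1 marker of 8 lower by over 1.5-fold on day 3 (background 12.5%), at 1386 in siKlf5 against 2293 in siCtrl cells, and Mef2c was at 218 against 315. Neither passed the fit over the 4 days (Myog adjusted p = 0.228, limma).

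Across the 8 libraries, pairs of members were compared by Pearson's r of the log2 values, as a description over libraries that share siRNA and day. Dag1 and Sgcb gave 0.984 and Sgca and Sgcb 0.964. Sgcd gave between 0.0883 and 0.500 with the other members, the lowest being with Sgce, and rested on 9 to 183 reads a library. Sgce gave between −0.0405, with Dmd, and 0.750, with Dtna, so low values were not particular to Sgcd. The transcripts whose course was most like that of each member were also named, among those with a mean of at least 10. For Dag1 these were Nrep (0.998), Sh3bgr (0.996) and Mypn (0.995), and for Sgcb Tbx15 (0.996), Ankrd23 (0.996) and Myh8 (0.995), the perinatal myosin. For Sgca they were Wbscr27 (0.991), Cox8b (0.986) and Egr3 (0.984), and for Dtna Pik3ca (0.983), Slc3a1 (0.980) and Apool (0.978). Utrn ran with Bnc2 (0.980), Samd4 (0.978) and Akap13 (0.975), and Dmd with Zranb1 (0.964), R3hdm4 (0.963) and Pacsin1 (0.961).

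The transcripts nearest to Sgcd were Cnnm4 (0.973), N4bp3 (0.950) and Grtp1 (0.946). N4bp3 was at 17.4, 34.1, 75.9 and 89.4 on days 0 to 3 in siCtrl cells and at 12.6, 9.35, 21.3 and 13.5 in siKlf5 cells. Grtp1 was at 145 on day 3 in siCtrl and 44.2 in siKlf5 cells. Like Sgcd they were lower in siKlf5 cells on days 1, 2 and 3, which is what the measure of likeness selects. Sgce varied too little over the libraries for this comparison.

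The 250 bases before the start of Dmd and of Sgca are shown because these are the members most typical of muscle and their table start coincides with an annotated one. Both are read on the gene's strand from mm9, Dmd at chrX:80193959-80194208 and Sgca at chr11:94837642-94837891. Capitals mark the E-box CANNTG, the letters bound by MyoD and related factors.
Dmd: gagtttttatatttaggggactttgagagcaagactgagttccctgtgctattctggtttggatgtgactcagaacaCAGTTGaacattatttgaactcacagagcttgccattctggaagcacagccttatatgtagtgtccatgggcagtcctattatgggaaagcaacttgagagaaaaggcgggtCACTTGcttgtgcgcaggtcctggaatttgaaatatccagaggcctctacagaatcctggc
Sgca: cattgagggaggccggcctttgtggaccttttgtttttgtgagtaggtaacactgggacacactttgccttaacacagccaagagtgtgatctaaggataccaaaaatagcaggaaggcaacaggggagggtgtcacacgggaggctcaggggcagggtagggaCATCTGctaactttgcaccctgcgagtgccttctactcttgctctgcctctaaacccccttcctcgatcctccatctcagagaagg

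Dmd held 2 of these E-boxes and Sgca 1, and CANNTG, which reads the same on both strands, was found in 62.9% of 23953 such windows before table transcripts. Among the other members it occurred 7 times before Utrn, 3 before Dtna, 1 before Dag1, 1 before Sgcd and 0 before Sgcb and Sgce. The more specific CAGCTG, which is a case of CANNTG, was before neither Dmd nor Sgca (12.4% of windows), and was found 2 times before Dtna. CACCC, the core letters of sites for Krüppel-like factors, searched on both strands, was in 52.6% of windows. It occurred 2 times before Sgca, 3 before Utrn, 3 before Sgcb, 1 before Dag1, 1 before Sgce and 0 before Dmd, Sgcd and Dtna. For Sgcd another annotated start lies 220 bp upstream of the counted one, so its window is mostly not sequence upstream of that start. Matches are a description of letters in these windows and carry no statement on binding.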

How the data were processed

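Members were found by the symbol in the annotation column of the deposited table. Reads were paired-end. The authors mapped them with STAR (mm9) and used HOMER to count exon reads of RefSeq transcripts on both strands, keeping at most 3 reads per position and 1 transcript per gene, and deposited FPKM values with the matrix total set to 10000000. Per the labels, read counts were also normalized with DESeq2, and those were not used here. A further 8 per-sample columns hold log2 values and were left out. 4 libraries named in the file's header command were not analysed here.

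Reads per transcript were recovered from the FPKM value, the exon length and the step of the low values, and all values checked lay within 0.1 of a whole number. Since transcripts with 6 reads outnumbered those with 5 by 2.83 to 10.0 times, 95% exact (Clopper-Pearson) intervals were computed on reads divided by 6, with a floor of 3 such units (18 reads). Intervals and floor cover counting error only.

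Ratios used log2(value + 0.1), which understates changes of low transcripts. Tests were limma 3.58.1 (R 4.3.3) on the same values, with a mean-variance trend and siRNA and day as factors. They covered transcripts of mean at least 1, with Benjamini-Hochberg adjustment at 0.05. In simulated data with counting error alone, the fit of siKlf5 against siCtrl recovered 72% of 2-fold and 94% of 4-fold changes, with 3 false calls. The changed transcripts had a mean of at least 10. The simulated siRNA effect did not vary between days, so real error rates are not measured by it. No condition has a replicate. Correlations used log2(value + 1). Motifs were searched in the 250 bases before each start.

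Some genes of the partner list are not reported here and were left out of its counts. Members and lists were chosen, and lists written from general knowledge, with earlier results of these data known. Named were the members, Klf5, the differentiation markers by value, up to 4 genes of each list with the largest day 3 ratio (mean at least 5, same sign on days 2 and 3), and the 3 transcripts with the highest r to each member of at least 2-fold range. Genes that passed the fit of siKlf5 against siCtrl were also named. Partners, glycosylation genes and laminins named for passing the fit of day 3 against day 0, and Pomgnt1, Dpm2, Dpm3, Ank2, Synm, Tln2, Dst, Plec, Lamb1 and Hspg2, were added after their values were seen. Alternatives were other pseudocounts, filters, scalings and cutoffs, limma without a trend, day as a number, and leaving out each day.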

Additional observations from a re-analysis of the deposited data

How the results depend on the processing

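The labels give no replicate numbers, and the libraries were paired by day alone, in the fit with day as a factor and in the sign-flip permutation. Members' ratios on single days and from day 0 to day 3 stayed within their counting interval in 192 of 192 recomputed values. Whether a ratio stayed on its side of the cutoff was not part of this measure. This measure is loose where the interval is wide. The Dmd log2 difference of day 3 from day 0 in siCtrl cells, whose interval has no upper limit, was 5.67. It was 2.58 with pseudocount 1 and 8.97 with pseudocount 0.01. For Sgce the same difference turned from −0.06 to 0.05 with median-ratio scaling. The members higher by over 1.5-fold on days 0 and 1, Dmd in both cases, fell away with pseudocount 1 (0 and 0), and so did Dmd among the members lower on day 2 (2 in place of 3). With a 2-fold cutoff, 0 members were lower on day 0 and 1 on day 2. In the fit of day 3 against day 0, 2 members were higher with no filter on low values, since Utrn, Sgca and Dtna lost their call, which tests all 24016 transcripts. Without a mean-variance trend Utrn lost its call and Dmd gained one, and the cause was not tested. In the fit of siKlf5 against siCtrl, the Dmd log2 difference was −0.18 with pseudocount 1 and ran from −0.21 to 0.57 without day 0, 1 or 2 in turn (without day 3 it fell under the filter and has no value), Sgce was −0.0047 with median-ratio scaling and ran from −0.056 to 0.0936 when each day was left out, and Dtna ran from −0.147 to 0.0676. No member passed this fit under any alternative run, while the number of transcripts passing went from 9 to 0 with no filter or without a trend, and lay between 0 and 16 when each day was left out. Median-ratio scaling moved the median of day 3 against day 0 by 0.11 in siCtrl and 0.12 in siKlf5 cells on the log2 scale, which turned no called member. Depth limits Dmd on all days and Sgcd in siKlf5 cells.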
